A study of Mus musculus with 69 samples.

Results

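The genes described here serve receptor-mediated protein uptake in the kidney tubule. They are the multiligand receptors megalin (Lrp2) and cubilin (Cubn) together with partners of their endocytic route (Amn, Lrpap1, Dab2, Clcn5, Rab11a, Ocrl and Ctns), and they are picked by gene name. The set was proposed with earlier results of these data known. All 9 names matched 1 row in each table, out of 55487 genes listed at 24 h and 53700 at 72 h. RNA-seq libraries came from kidney tubules microdissected from wild-type male C57BL/6 mice (Taconic), 7 weeks old when assigned to their group. The mice were sham-operated or lost a kidney to surgery (unilateral nephrectomy, UNx), and 24 h or 72 h later either the proximal tubule's first segment (PT-S1) or cortical collecting duct (CCD) was taken. For PT-S1 at 24 h there were 3 sham and 4 UNx mice (8 and 9 libraries), and at 72 h there were 5 and 5 mice (12 and 12 libraries). For CCD the numbers were 4 sham and 3 UNx mice at 24 h (8 and 7 libraries) and 4 and 4 mice at 72 h (7 and 6 libraries). The number after the treatment in a sample title was read as the animal, and n counts animals. P-values measure the spread between animal means, except where every library entered the fit. That spread also carries differences between the libraries of an animal.

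Cells of the proximal tubule retrieve filtered proteins, vitamin carriers and hormones from the tubular fluid. Megalin and cubilin bind these ligands at the brush border, amnionless (Amn) carries cubilin to the surface, and the adaptor Dab2 links the receptor tails to clathrin. Vesicles are acidified with the help of the chloride/proton exchanger ClC-5 (Clcn5), receptors return through recycling endosomes marked by Rab11a, and the cargo is degraded in lysosomes. Loss of several of these genes in humans gives low molecular weight proteinuria or the renal Fanconi syndrome.

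Values are in TPM, a unit scaled for transcript length and library size, so that levels of different genes can be set beside each other. Depth per library cannot be read from TPM and is unknown. The 4 tables were normalized separately, so levels set across segments or times are descriptions with no test. A difference in bulk tubules cannot tell fewer cells of a type from less RNA per cell. Across all 69 libraries, 9247 to 14875 genes reached 1 TPM. For 5 libraries, log2(TPM + 1) correlated with the rest of their own table at a median under 0.92, and these are called the libraries of low correlation. They belonged to PT-S1 24 h sham animals 1 and 3 (0.824 and 0.904), PT-S1 72 h UNx animals 1 and 2 (0.825 and 0.844) and CCD 72 h sham animal 1 (0.914), and the other libraries were at 0.945 or above. No library of CCD at 24 h was among them. The labelled segments carried their defining markers: in PT-S1 at 24 h, mean Slc34a1 was 9082 TPM in sham, while the mean of Aqp2 was 0.095 TPM. In CCD at 24 h sham, Aqp2 was at 22506 TPM and Slc34a1 at 30.3 TPM.

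In sham PT-S1, the chaperone Lrpap1 stood highest of the 9 genes and Ocrl lowest. At 24 h the sham means, in TPM, were Lrpap1 900.4, Dab2 715, Amn 413, Rab11a 282, Lrp2 112, Cubn 40.3, Ctns 30.8, Clcn5 18.9 and Ocrl 5.06. In that order the animals of Lrpap1 and Dab2 overlapped, as did those of Cubn and Ctns and those of Ctns and Clcn5. At 72 h the order was the same except that Ctns (30.4 TPM) stood above Cubn (28.1 TPM), with overlapping animals. In sham CCD, Rab11a led at 335 TPM at 24 h and 324 TPM at 72 h, followed by Dab2 at 205 and 215 TPM and Lrpap1 at 185 and 170.04 TPM. Amn, Lrp2 and Cubn came last in CCD, at 1.50, 0.743 and 0.341 TPM at 24 h.

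**Figure D1:**
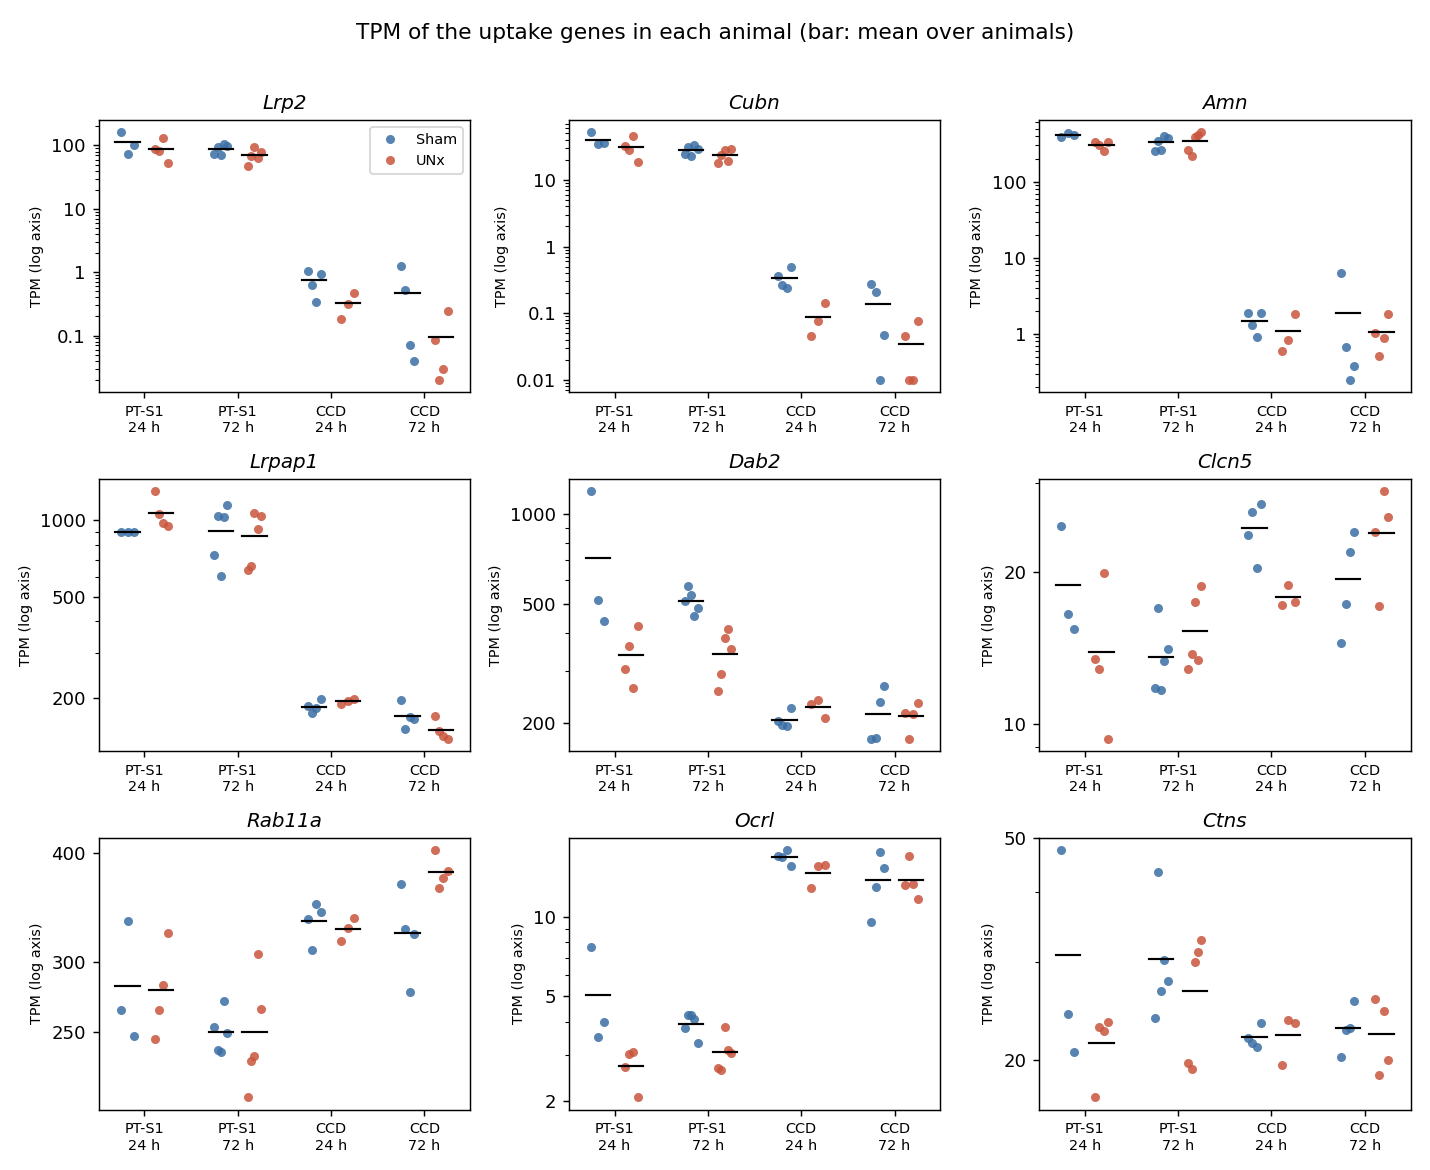
TPM of each gene (log axis) against segment and time; each point is an animal (mean of its libraries), blue for sham and red for UNx, and bars are means over animals. Lrp2, Cubn and Amn lie 118 to 276-fold higher in sham PT-S1 than in sham CCD (104 to 464-fold without the libraries of low correlation), whereas Ocrl lies 3.32 and 3.51-fold higher in CCD.

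The receptors and amnionless marked PT-S1. In sham animals at 24 h and 72 h, Lrp2 was 151 and 188-fold higher in PT-S1 than in CCD, Cubn 118 and 208-fold, and Amn 276 and 172-fold, with no overlap between the animals of the segments. The folds at 72 h rest on the library of low correlation in CCD sham animal 1. Without such libraries, an alternative chosen after seeing the data, the folds were 126 and 352 for Lrp2, 104 and 316 for Cubn, and 286 and 464 for Amn. Lrpap1, which keeps ligands off the receptors during folding, was 4.88 and 5.34-fold higher in PT-S1, and Dab2 was 3.48 and 2.39-fold higher, also without overlap. The genes of later steps did not follow this pattern. Ocrl, the phosphoinositide 5-phosphatase mutated in Lowe syndrome, was 3.32 and 3.51-fold higher in CCD, without overlap. Rab11a was 1.19 and 1.298-fold higher in CCD, with overlapping animals at 24 h only. Clcn5 (1.29 and 1.43-fold higher in CCD) and Ctns, the lysosomal cystine exporter (1.403 and 1.33-fold higher in PT-S1), overlapped between the segments at both times. Clcn5 without the libraries of low correlation was 1.505 and 1.58-fold higher in CCD with no overlap, and Ctns no longer overlapped at 24 h (1.16-fold).

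The 250 bases upstream of the RefSeq transcription start (GRCm38.p6) are shown for the 3 genes that separated the segments most, to let their promoters be compared. Each is read 5′ to 3′ on the gene's strand, and capitals mark the GC box letters GGGCGG on either strand. The windows lie at chr2:69586030-69586279 (minus strand) for Lrp2, chr2:13491877-13492126 (minus strand) for Cubn and chr12:111270846-111271095 (plus strand) for Amn.
Lrp2: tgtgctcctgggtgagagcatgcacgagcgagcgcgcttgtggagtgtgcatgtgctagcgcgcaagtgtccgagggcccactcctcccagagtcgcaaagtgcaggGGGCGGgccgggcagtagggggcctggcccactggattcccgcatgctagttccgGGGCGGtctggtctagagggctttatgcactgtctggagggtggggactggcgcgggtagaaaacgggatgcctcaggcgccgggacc
Cubn: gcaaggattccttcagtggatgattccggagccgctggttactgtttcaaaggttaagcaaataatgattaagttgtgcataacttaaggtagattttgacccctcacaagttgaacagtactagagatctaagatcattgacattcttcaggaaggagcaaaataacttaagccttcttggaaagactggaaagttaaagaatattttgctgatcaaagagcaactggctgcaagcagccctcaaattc
Amn: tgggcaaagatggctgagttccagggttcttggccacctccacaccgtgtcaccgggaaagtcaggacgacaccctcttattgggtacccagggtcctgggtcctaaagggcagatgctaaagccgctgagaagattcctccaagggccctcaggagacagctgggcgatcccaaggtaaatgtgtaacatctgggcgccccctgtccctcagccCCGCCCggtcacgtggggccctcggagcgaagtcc
The Lrp2 window held the GC box 2 times, starting 143 and 88 bases upstream, and the Amn window held it once, 35 bases upstream. The Cubn window held none and was rich in A and T: its GC content was 39.6%, against 66.4% for Lrp2, 61.2% for Amn and a median of 52.4% over all promoter windows. The ratio of observed to expected CpG was 0.685 for Lrp2, 0.47 for Amn and 0.206 for Cubn, with a median of 0.374. GGGCGG was present in windows of 7 of the 9 genes and in 32.7% of the 32851 windows in the RefSeq table. The letters GTTAATNAT (HNF1 type), CAAAGTCCA (HNF4 type) and TCACGTGA (the E-box of lysosomal genes), searched on both strands, occurred in 0.737%, 0.384% and 0.785% of windows and in none of the 12 windows of the 9 genes, which says only that these letters are not there.

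In CCD the PT-S1 genes were found at traces. Lrp2 in sham CCD at 24 h was at 1.06, 0.63, 0.34 and 0.94 TPM, and in UNx at 0.185, 0.32 and 0.477 TPM. Cubn there was at 0.365, 0.265, 0.24 and 0.4933 TPM in sham and at 0.045, 0.075 and 0.143 TPM in UNx, so that the groups did not overlap. Among the genes tested, 9.51% had all UNx animals below all sham animals. Single Cubn libraries overlapped, at 0.02 to 0.69 TPM in sham and 0 to 0.24 TPM in UNx. Both Lrp2 and Cubn had a mean under 1 TPM and were not tested. As a percent of their sham PT-S1 mean, sham CCD held 0.661% of Lrp2, 0.846% of Cubn and 0.363% of Amn at 24 h. Measured the same way, 6 proximal tubule markers were at 0.333% for Slc34a1, 0.401% for Slc7a7, 0.246% for Slc22a8, 0.115% for Slc5a12, 0.0552% for Slc5a2 and 1.42% for Slc4a4. In UNx CCD the shares were 0.291% for Lrp2, 0.218% for Cubn and 0.264% for Amn. For the markers they were 0.204% for Slc34a1, 0.274% for Slc7a7, 0.217% for Slc22a8, 0.0202% for Slc5a12, 0.0332% for Slc5a2 and 1.24% for Slc4a4. At 72 h the sham means in CCD were 0.533% for Lrp2, 0.481% for Cubn and 0.580% for Amn, beside 0.250% for Slc34a1. Without the library of low correlation they were 0.284%, 0.317%, 0.215% and 0.186%. Amn reached 6.295 TPM in sham animal 1 at 72 h, where the library of low correlation held 11.07 TPM, and without that library the sham mean was 0.706 TPM against 1.07 TPM in UNx. Whether the traces come from proximal tubule RNA in the CCD samples was not tested.

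UNx against sham in PT-S1 asks whether loss of the other kidney changed the uptake genes where they are most expressed. At 24 h, 0 of the 9 genes passed limma (adjusted p under 0.05), and 0% of the 11874 genes tested did so. At an unadjusted p under 0.05, 3 of the 9 (Amn, Dab2 and Ocrl) were lower after UNx, against 15.2% of all genes tested. At 72 h, 0 of 9 passed limma, beside 0% of 11886 genes, and 2 of 9 (Dab2 and Ocrl) were lower at an unadjusted p under 0.05, against 19.1% of all genes. With every library in the fit and the animal as a random effect, 0 of 9 passed at either time as well, beside 100 of 11874 genes at 24 h and 10 of 11886 at 72 h. The median log2 change over all genes tested was itself -0.19 at 24 h and -0.29 at 72 h. It was -0.32 and -0.39 over the 9 genes, of which 8 had a negative change at each time, as did 70.9% of all genes tested at 24 h and 83.0% at 72 h. With median-ratio scaling of the libraries, which brings the median near 0 by construction, the median of all genes was 0.012 at 24 h and 0.019 at 72 h. Without the libraries of low correlation the median was -0.21 at 24 h and -0.021 at 72 h. All changes are on the log2(TPM + 1) scale, UNx minus sham, which understates those of low genes.

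**Figure D2:**
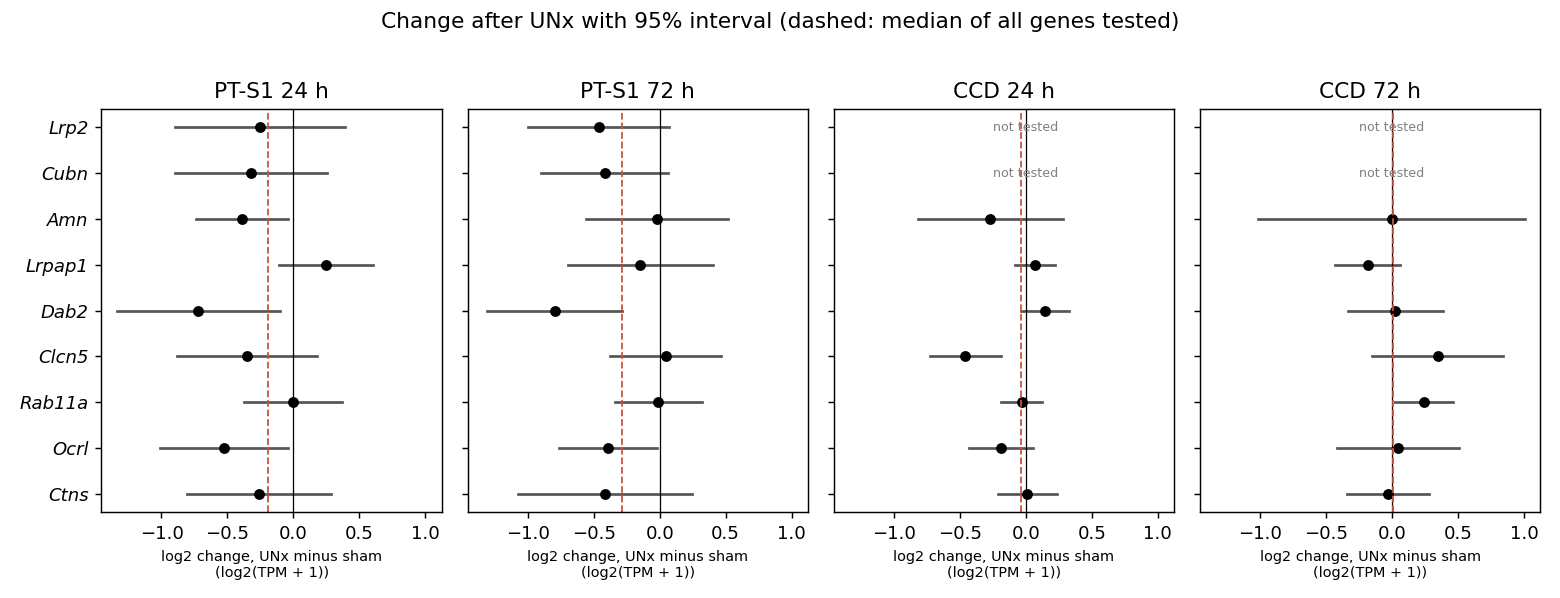
Change of each gene after UNx (x axis, log2(TPM + 1), UNx minus sham) in the 4 tables; points are limma estimates, lines their 95% intervals, and the dashed line is the median of all genes tested. In PT-S1 the intervals of Dab2 and Ocrl lie below 0 at both times, and that of Amn at 24 h; in CCD that of Clcn5 lies below 0 at 24 h and that of Rab11a above 0 at 72 h.

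Among the receptors, Lrp2 did not separate the groups. At 24 h it was at 161, 73.6 and 102 TPM in sham animals and at 88.5, 81.4, 130.3 and 53.2 TPM in UNx animals, which overlap. The log2 change was -0.25 (SE 0.29, 95% interval -0.90 to 0.39, adjusted p = 0.622 by limma). At 72 h Lrp2 was at 73.0, 93.4, 69.9, 105 and 98.7 TPM in sham and at 47.2, 67.9, 93.8, 64.2 and 78.8 TPM in UNx. UNx animals 1, 2 and 4 lay under all sham animals there, and the change was -0.46 (SE 0.24, 95% interval -0.99 to 0.07, adjusted p = 0.270 by limma). Without the libraries of low correlation it was -0.13 at 24 h and -0.06 at 72 h.

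Cubn, the receptor for intrinsic factor and albumin that has no membrane-spanning part of its own, varied from animal to animal much as Lrp2 did. It was at 51.5, 34.15 and 35.2 TPM in sham and 32.6, 28.4, 44.8 and 18.8 TPM in UNx at 24 h, with sham animal 1 highest and UNx animal 4 lowest for both genes. At 72 h it was at 24.7, 31.2, 22.6, 33.0 and 29.1 TPM in sham and 18.2, 23.3, 27.6, 19.2 and 29.0 TPM in UNx. The changes were -0.32 (adjusted p = 0.491) and -0.42 (adjusted p = 0.271 by limma), and the groups overlapped at both times. Without the libraries of low correlation they were -0.23 and 0.04. The ratio of Cubn to Lrp2 in an animal was 0.332 to 0.453 in sham and 0.344 to 0.368 in UNx at 24 h, and 0.287 to 0.340 and 0.296 to 0.369 at 72 h.

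Over the 17 PT-S1 animals of both times, each centred on its table, Cubn was the gene nearest to Lrp2 of 6329 compared, and Lrp2 the nearest to Cubn. The root mean square difference of log2(TPM + 1) was 0.128, where the median gene differed from Lrp2 by 0.415. The next nearest to Lrp2 were the kinase Lrrk2 (0.156) and Nomo1 (0.168), and the next nearest to Cubn were the splicing factor Prpf8 (0.150) and the motor Myo5b (0.154), which works with Rab11a in recycling. Clcn5 was at rank 152 in nearness to Lrp2 and rank 37 to Cubn. Amn, the partner of cubilin, was at ranks 3567 and 2947, and Dab2 at ranks 4895 and 5045. Without the libraries of low correlation, an alternative chosen after seeing the data, the difference between Lrp2 and Cubn was 0.136. Cubn was then still the nearest to Lrp2, and Lrp2 was at rank 3 for Cubn, behind Sptbn1 and Ubr3.

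Lrp2 and Cubn have the longest transcripts of the 9 genes, at 15460 and 11262 bases in the GENCODE annotation of GRCm38, while that of Amn has 1701 bases. In the PT-S1 library of 24 h sham animal 1 with a low correlation, Lrp2 was at 303 TPM and Cubn at 92.3 TPM, against 86.35 and 93.2 TPM and 32.5 and 29.7 TPM in the other libraries of that animal. Amn was at 186 TPM in it, against 491 and 492 TPM. The median log2 deviation, from the gene's mean, of transcripts of at least 6000 bases minus that of transcripts of 1000 to 2000 bases was 2.15 in this library and -0.64 to 0.46 in the other PT-S1 libraries. By animal this index at 24 h was lowest in UNx animal 4 (-0.46), which was also lowest in Lrp2 and Cubn. The part of transcript length in the likeness of the genes was not tested.

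**Figure D3:**
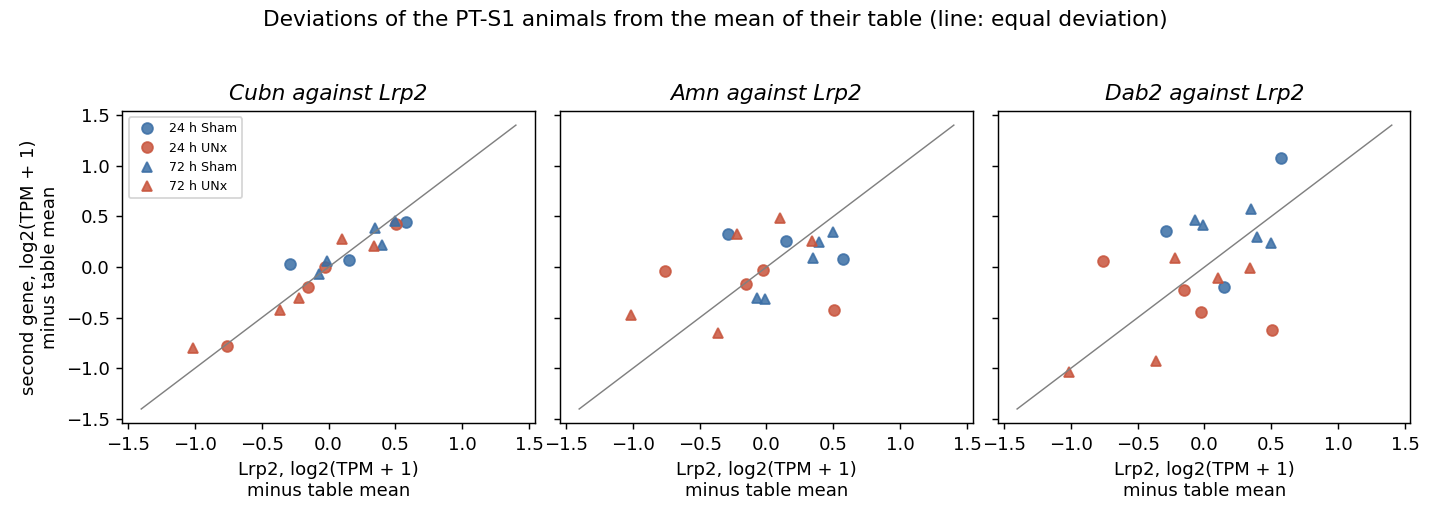
Each point is a PT-S1 animal (circles 24 h, triangles 72 h; blue sham, red UNx); the x axis is the deviation of Lrp2 and the y axis that of Cubn, Amn or Dab2 from the mean of the table, in log2(TPM + 1), and the line marks equal deviations. Cubn stays close to the line (root mean square difference 0.128), whereas Amn and Dab2 scatter (0.428 and 0.490).

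The values of Amn were lower in every UNx animal than in any sham animal at 24 h, and not at 72 h. At 24 h it was at 389.9, 433 and 417 TPM in sham (413 ± 21.6, SD, n = 3) and at 332, 299.9, 250.35 and 329.7 TPM in UNx (303 ± 37.9, n = 4). The groups did not overlap, as was true, with UNx below sham, of 12.1% of all genes tested. The change was -0.39 (SE 0.16, adjusted p = 0.265 by limma). Measured from the median gene it was -0.20, and with median-ratio scaling -0.15. At 72 h Amn was at 256, 339, 259, 405 and 379 TPM in sham and at 261, 218, 385, 407 and 445 TPM in UNx, which overlap widely. The change there was -0.02 (adjusted p = 0.963 by limma) and turned to 0.24 without the libraries of low correlation and 0.37 with median-ratio scaling. The effects at the times differed by 0.37 (SE 0.33, adjusted p = 0.998 by limma), and by 0.72 (SE 0.23, adjusted p = 0.0917) without those libraries, the smallest adjusted p of the 9 genes over the 23 alternatives of this comparison.

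Lrpap1, the receptor-associated protein, was the only one of the 9 genes whose UNx animals all lay above sham at 24 h, as they did for 2.79% of genes tested. It was at 899.7, 902 and 899.3 TPM in sham and at 1300.4, 1057, 970.3 and 946 TPM in UNx. The means of the sham animals were close together (SD 1.49 TPM), but their single libraries ranged from 656 to 1123 TPM. Without the libraries of low correlation the sham SD was 59.7 TPM. The change was 0.24 (SE 0.16, adjusted p = 0.403 by limma), and without the libraries of low correlation it was 0.14 and the groups overlapped. With median-ratio scaling it was 0.48 (adjusted p = 0.338 by limma). At 72 h Lrpap1 was at 729, 1036, 603, 1027 and 1144 TPM in sham and 638, 659.6, 1068, 925 and 1038 TPM in UNx, a change of -0.15 that turned to 0.19 without those libraries (adjusted p = 0.713 and 0.565 by limma).

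Dab2 had the log2 change furthest from 0 of the 9 genes in PT-S1 at both times with all libraries and animals in the fit. Without the libraries of low correlation Clcn5 was further from 0 at 72 h (0.41, against -0.29 for Dab2), and without sham animal 1 Amn was further at 24 h (-0.46, against -0.39). Dab2 at 24 h was at 1191, 515 and 439 TPM in sham and at 303, 363, 263 and 422 TPM in UNx. On this scale no UNx animal reached a sham animal, but sham animal 3 overlapped once its libraries were averaged as logs. Sham animals averaged 715 ± 414 TPM (SD, n = 3) and UNx animals 338 ± 69.8 TPM (n = 4), and the change was -0.72 (SE 0.28, 95% interval -1.34 to -0.10, adjusted p = 0.256 by limma). At 72 h Dab2 was at 512, 573, 537, 455 and 485 TPM in sham (512 ± 45.4, n = 5) and at 256, 293, 384, 413 and 356 TPM in UNx (340.4 ± 64.7, n = 5). All 5 UNx animals lay below all 5 sham animals, which was so for 5.33% of the genes tested. The change was -0.80 (SE 0.24, 95% interval -1.31 to -0.29, adjusted p = 0.237 by limma). Measured from the median gene the changes were -0.53 and -0.51, and with median-ratio scaling -0.48 and -0.41.

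The size of the Dab2 change rested in part on libraries of low correlation. At 24 h such a library of sham animal 1 held 2599 TPM of Dab2, and one of sham animal 3 held 125 TPM, while the other 6 sham libraries ranged from 471 to 690.1 TPM. At 72 h those of UNx animals 1 and 2 held 80.35 and 79.1 TPM, and the other libraries of these animals held 432 and 507 TPM. Without them, sham Dab2 at 24 h averaged 533 ± 56.9 TPM and UNx 338 ± 69.8 TPM with no overlap, a change of -0.70 (SE 0.17, adjusted p = 0.0938 by limma). UNx animals lay below sham without overlap for 21.5% of all genes in that setting. At 72 h Dab2 was then 512 ± 45.4 TPM against 418 ± 57.4 TPM with overlap, a change of -0.29 (SE 0.11, adjusted p = 0.222 by limma). Over all alternatives the change ran from -1.02 to -0.39 at 24 h (adjusted p from 0.0938 to 0.675) and from -0.92 to -0.29 at 72 h (adjusted p from 0.150 to 0.484 by limma). The value of -0.39 came from leaving out sham animal 1.

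**Figure D4:**
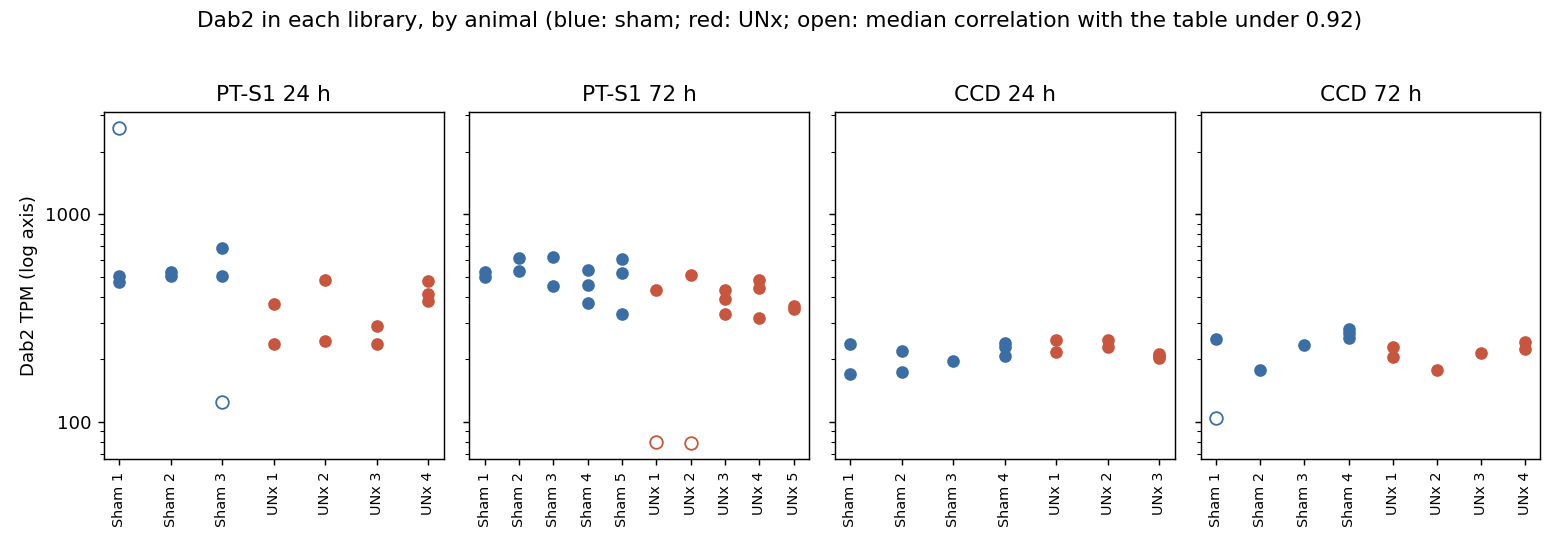
Dab2 TPM (log axis) in each library, grouped by animal in the 4 tables, blue for sham and red for UNx; open circles are the libraries of low correlation. The open circles span 79.1 to 2599 TPM in PT-S1; among the filled PT-S1 circles, sham lies at 331 to 690.1 TPM and UNx at 236 to 507 TPM.

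In CCD, Dab2 was at 203, 197, 196 and 225 TPM in sham and 232, 239 and 208 TPM in UNx at 24 h. These overlap, and the change was 0.14 (SE 0.08, adjusted p = 0.437 by limma). At 72 h it was 215 ± 43.8 TPM against 211 ± 23.4 TPM (n = 4 each), a change of 0.02 that became -0.13 without the library of low correlation. The UNx effect in PT-S1 minus that in CCD was -0.86 at 24 h (SE 0.32, unadjusted p = 0.0154, adjusted p = 0.240 by limma) and -0.82 at 72 h (SE 0.31, unadjusted p = 0.0162, adjusted p = 0.495 by limma). At 24 h, 0 of 7 genes tested passed in this comparison, against 0.137% of 10988 genes, and 1 of 7 (Dab2) had an unadjusted p under 0.05, against 15.4%. Without the libraries of low correlation the difference for Dab2 was -0.84 (SE 0.19, adjusted p = 0.0446 by limma), past the threshold together with 1.64% of genes. Leaving out PT-S1 sham animal 3 gave -1.17 (adjusted p = 0.0470 by limma), past it with 1.49% of genes. Over the 20 alternatives of this comparison the smallest adjusted p among the 7 genes ran from 0.0446 to 0.470. At 72 h, 0 of 7 passed (0% of 11035 genes), and 1 of 7 (Dab2) had an unadjusted p under 0.05, against 9.33% of all genes. The difference for Dab2 was -0.16 without the libraries of low correlation.

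RefSeq gives Dab2 a start at which the upstream window holds the letters GTTAAT of an HNF1 half-site, here in capitals, starting 65 bases upstream; 6.43% of all windows hold them. It is shown because Dab2 had the change furthest from 0 in PT-S1 with all libraries in the fit, and not at 72 h without those of low correlation. Its GC content is 60% and its CpG ratio 0.757. The window lies at chr15:6386498-6386747 (GRCm38.p6, plus strand), and the other Dab2 start has a window of 36.8% GC without these letters.
Dab2: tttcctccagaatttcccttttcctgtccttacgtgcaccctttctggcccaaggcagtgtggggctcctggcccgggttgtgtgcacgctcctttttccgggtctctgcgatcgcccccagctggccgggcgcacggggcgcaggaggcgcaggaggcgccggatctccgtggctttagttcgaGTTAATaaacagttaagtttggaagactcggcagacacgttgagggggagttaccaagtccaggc
A match is a description of the letters, and no binding was measured in these samples.

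Clcn5 had its clearest difference outside the proximal tubule. In CCD at 24 h it was at 23.7, 26.2, 20.3 and 27.3 TPM in sham (24.4 ± 3.11, n = 4) and at 17.2, 18.85 and 17.4 TPM in UNx (17.8 ± 0.897, n = 3). All UNx animals lay below all sham animals, as for 9.51% of genes tested. The change was -0.46 (SE 0.12, unadjusted p = 0.00397, adjusted p = 0.114 by limma), and over the alternatives it ran from -0.53 to -0.40 (adjusted p from 0.0786 to 0.346). Clcn5 has a long transcript (8390 bases), and the index of long against short transcripts, averaged by animal, also separated the groups of CCD at 24 h. It was -0.01 to 0.19 in the sham animals and -0.29 to -0.02 in the UNx animals, and the nearest animals were close, at -0.0093 and -0.0155. Single libraries of the groups overlapped, at -0.20 to 0.32 in sham and -0.51 to 0.12 in UNx. The part of this index in the Clcn5 values was not tested. At 72 h Clcn5 in CCD was at 14.5, 17.3, 21.95 and 23.9 TPM in sham and 23.95, 17.1, 28.9 and 25.7 TPM in UNx, a change of 0.34 (SE 0.22, adjusted p = 0.846 by limma). It was 0.14 without the library of low correlation. The 72 h effect minus the 24 h effect was 0.80 (SE 0.28, unadjusted p = 0.0108, adjusted p = 0.968 by limma). In PT-S1 the change was -0.35 at 24 h and 0.05 at 72 h, with overlapping animals, and the latter was 0.41 (adjusted p = 0.209 by limma) without the libraries of low correlation.

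For CCD as a whole, 0 of 7 genes tested passed limma at 24 h, beside 0.987% of the 13775 genes tested, and Clcn5 was the 1 gene with an unadjusted p under 0.05, against 15.5% of all genes. At 72 h, 0 of 7 passed, beside 0.595% of 13770 genes, and 1 of 7 had an unadjusted p under 0.05, against 7.49%. That gene was Rab11a, the GTPase of recycling endosomes. It was at 369, 327, 278 and 323 TPM in sham and at 403, 364, 374 and 381 TPM in UNx, where the highest sham animal reached into the UNx range. The change was 0.24 (SE 0.10, adjusted p = 0.604 by limma). Sham animal 1, the highest, holds the library of low correlation, and without that library the UNx animals lay above all sham animals (0.29, SE 0.08, adjusted p = 0.168 by limma), as for 3.78% of genes. Over all alternatives the change ran from 0.17 to 0.30 (adjusted p from 0.168 to 0.9997 by limma).

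In PT-S1, Rab11a was nearly level: 282 ± 46.0 TPM in sham and 279 ± 33.5 TPM in UNx at 24 h, and 249.8 ± 13.7 TPM and 249.8 ± 37.5 TPM at 72 h. The 95% intervals of the changes, -0.38 to 0.37 and -0.34 to 0.32, bound what was seen. They span a difference in either direction, so that equal levels are not shown. The effects at 72 h and 24 h differed in 0 of 9 genes in PT-S1 (0% of 11455 genes) and in 0 of 7 in CCD (0% of 13253 genes) by limma. At an unadjusted p under 0.05 the counts were 0 of 9 in PT-S1, against 3.33% of all genes, and 2 of 7 in CCD (Clcn5 and Rab11a), against 4.96%. For Rab11a in CCD the change was -0.03 at 24 h, and the 72 h effect minus the 24 h effect was 0.27 (SE 0.12, adjusted p = 0.968 by limma).

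Ocrl, which removes the 5-phosphate from phosphoinositides on coated vesicles and early endosomes, was low in PT-S1. It was at 7.71, 3.50 and 3.98 TPM in sham and at 2.695, 3.02, 3.085 and 2.07 TPM in UNx at 24 h. The groups did not overlap, with UNx below sham, as for 12.1% of all genes tested. The change was -0.53 (SE 0.22, adjusted p = 0.269 by limma), and -0.39 without the libraries of low correlation, where the sham mean was 3.87 TPM. At 72 h it was at 3.785, 4.24, 4.24, 4.11 and 3.32 TPM in sham and at 2.67, 2.63, 3.82, 3.14 and 3.055 TPM in UNx, where the highest UNx animal reached into the sham range. The change was -0.39 (SE 0.17, adjusted p = 0.241 by limma) and -0.01 without those libraries. In CCD Ocrl was at 16.8 ± 0.967 TPM in sham and 14.7 ± 1.56 TPM in UNx at 24 h, and 13.8 ± 3.43 TPM and 13.8 ± 2.26 TPM at 72 h. The changes there were -0.19 and 0.04, with overlapping animals.

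Ctns, whose loss causes cystinosis, was at 30.8 ± 14.6 TPM in sham and 21.5 ± 2.92 TPM in UNx PT-S1 at 24 h, and at 30.4 ± 7.68 TPM and 26.6 ± 6.55 TPM at 72 h. Its changes were -0.26 (adjusted p = 0.551) and -0.42 (adjusted p = 0.380 by limma) with overlapping animals, and without the libraries of low correlation that at 72 h turned to 0.15. In CCD it stayed between 18.8 and 25.7 TPM in all 15 animals. Lrpap1 in CCD was at 185 ± 9.40 TPM in sham and 194 ± 4.78 TPM in UNx at 24 h, and at 170.04 ± 19.2 TPM and 149 ± 14.5 TPM at 72 h, again with overlap.

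Some sums of tubule cell markers also separated the groups of PT-S1. At 24 h the summed TPM of 6 proximal tubule S1/S2 markers was 11956 to 15236 in sham animals and 7305 to 11701 in UNx animals, without overlap, and all 6 had a mean above 1 TPM. Most of that sum was Slc34a1, at means of 9082 TPM in sham and 6992 TPM in UNx. Slc5a2, Slc5a12, Slc7a7 and Slc4a4 also had lower means in UNx, and Slc22a8 a higher one, at 462 TPM against 391 TPM. At 72 h the sums overlapped, at 6734 to 14446 and 8968 to 15950. The sums of a pair of marker lists for other segments separated the groups there: 7 principal cell markers summed to 71.5 to 79.8 TPM in sham and 96.3 to 135 TPM in UNx. The 6 intercalated cell markers summed to 3.53 to 20.5 TPM and 1.95 to 2.71 TPM, and 5 and 4 genes of these lists, Aqp2 among them, had means under 1 TPM. The principal cell sum was mostly Aqp3 (means of 34.6 TPM in sham and 52.3 TPM in UNx) and Fxyd4 (39.3 and 58.3 TPM). The 5 other genes of that list had lower means in UNx, such as Aqp2 (0.307 and 0.022 TPM) and Hsd11b2 (1.18 and 0.0323 TPM). At 24 h the sum of 3 distal convoluted tubule markers, all with means under 1 TPM, also separated the groups, at 1.09 to 1.29 TPM and 0.295 to 0.93 TPM. Every other sum in PT-S1 overlapped between the groups, such as that of S3 markers at 72 h (12.0 to 484 TPM in sham, 14.8 to 133 TPM in UNx). Of all single genes tested in PT-S1, 14.9% at 24 h and 5.56% at 72 h had groups that did not overlap. The 7 macrophage and leukocyte markers, a cell type that also expresses Dab2, summed to 152 to 213 TPM in sham and 84.5 to 161 TPM in UNx at 24 h, and to 135 to 398 TPM and 35.6 to 351 TPM at 72 h. Adgre1 and Ptprc, which define these cells, had means of 0.551 to 1.05 TPM in the groups of PT-S1. In CCD at 24 h the sums of all marker lists overlapped between the groups. There the thick ascending limb markers summed to 98.6 to 3455 TPM in sham and 83.9 to 199.6 TPM in UNx. Principal cell markers summed to 25077 to 50456 TPM and 48052 to 66803 TPM, with mean Aqp2 at 22506 TPM in sham and 41324 TPM in UNx. The part of these markers in the values of the 9 genes was not tested.

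The wider uptake route was followed through 7 lists of other genes. Of the listed genes, 138 and 139 were tested in PT-S1 and 142 and 143 in CCD, and none passed limma. The list counts are from the fit with all libraries and animals. Without PT-S1 24 h sham animal 1, 826 of all 11759 genes tested had an unadjusted p under 0.05, against 2109 of 11874 with that animal. List counts for that setting are not given. At an unadjusted p under 0.05, 3 of the 138 were higher (2.17%, against 2.59% of all genes) and 27 lower (19.6%, against 15.2%) in the PT-S1 table of 24 h. In that of 72 h, 1 was higher (0.719%, against 1.33%) and 16 lower (11.5%, against 19.1%), so that the share of lower genes was under that of all genes. In the CCD table of 24 h, 4 were higher (2.82%, against 5.55%) and 15 lower (10.6%, against 9.97%). In that of 72 h, 2 were higher (1.4%, against 4.66%) and 0 lower (against 2.82%). The clathrin coat and adaptor genes, which act at the step of Dab2, had a median change of -0.54 in PT-S1 at 24 h, against -0.19 for all genes, and 13 of 24 had an unadjusted p under 0.05, all lower (54.2%, against 15.2% of all genes). At 72 h their median was -0.39 and 5 of 24 were so (20.8%, against 19.1%), with a median of -0.29 for all genes. In CCD their medians were -0.07 and 0.03. Genes of phosphoinositide kinases, phosphatases and Ocrl partners had negative changes in 15 of 15 tested at both times in PT-S1, with medians of -0.41 and -0.36, where 70.9% and 83.0% of all genes were negative. Sorting and recycling endosome genes had medians of -0.31 and -0.43, with 31 and 29 of 34 negative (91.2% and 85.3%, the latter near the share of all genes). Lysosomal proteins, the destination of the cargo, had medians of 0.02 and -0.07, and the V-ATPase subunits, which acidify endosomes with Clcn5, had -0.05 and -0.18. Other receptors of the LDL receptor family had -0.31 and -0.14, and genes of cargo and vitamin handling 0.09 and -0.05.

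The listed gene with the smallest p in each table was named by rule. In PT-S1 at 24 h it was Aak1, the kinase of the clathrin adaptor AP2, at 9.66 ± 2.49 TPM in sham and 4.03 ± 1.28 TPM in UNx (-1.05, adjusted p = 0.228 by limma). At 72 h it was Pip5k1b, which makes the phosphoinositide of coated pits, at 4.999 ± 0.974 and 3.13 ± 0.392 TPM (-0.61, adjusted p = 0.237 by limma). In CCD it was the V-ATPase subunit Atp6v0a4 at 24 h, at 154 ± 39.5 and 82.0 ± 1.47 TPM (-0.88, adjusted p = 0.0668 by limma), and the phosphatase Mtmr2 at 72 h, at 34.8 ± 2.13 and 41.2 ± 0.507 TPM (0.26, adjusted p = 0.464 by limma).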

How the data were processed

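Gene expression was deposited by the authors as TPM per gene and library in 4 tables, 1 for each segment and time; the submitters' processing notes name STAR, RSEM 1.3.3 and the genome build GRCm39, with no role or order, and the annotation release is not given in the sources used here. Per the labels' protocols, cDNA was made from polyA RNA with a low-input kit. Of 69 columns, 47 matched a single sample by name and 22 gave the group and animal only. Libraries of an animal were averaged as log2(TPM + 1), and genes with a mean of at least 1 TPM were tested by limma 3.58.1 in R 4.3.3 (two-sided, mean-variance trend, Benjamini-Hochberg over all genes tested, threshold 0.05), a procedure first tested on simulated data. Differences of effects between tables were fitted over the 4 groups concerned, with all animals treated as independent. If PT-S1 and CCD of the same number came from the same mouse, that pairing was not used.

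The 9 genes and the 7 lists were chosen with earlier results of these data known. Genes named were the 9, the listed gene with the smallest p in each table where none passed, and the 3 genes nearest to Lrp2 and to Cubn among those with at least 10 TPM. Ubr3 and Sptbn1 were named after their values were seen. Other pseudocounts, filters, scalings, models and left-out animals or libraries were tried. Promoters and transcript lengths come from GRCm38 tables and are not the build of the files.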

Additional observations from a re-analysis of the deposited data

Results flagged for a closer look

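In 54 groups of 4 or 5 animals, the gap between an extreme animal and its neighbour was set against the range of the group (Dixon's critical values, at which chance gives about 1 flag in 20 groups), and 2 groups stood out. Ctns in PT-S1 at 24 h was at 17.15 TPM in UNx animal 1, below the other UNx animals at 22.6 to 23.4 TPM. Dab2 in CCD at 24 h was at 225 TPM in sham animal 4, above the other sham animals at 196 to 203 TPM.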

How the results depend on the processing

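Over the alternatives, 427 of 469 log2 changes of the 9 genes kept their sign and their side of the threshold, and 42 turned their sign, all of them without passing limma before or after. With median-ratio scaling, Rab11a turned to 0.23 and 0.38 in PT-S1 (24 h, 72 h) and to 0.024 in CCD 24 h, and Amn and Lrpap1 to 0.37 and 0.24 in PT-S1 72 h. Without the libraries of low correlation, Cubn, Amn, Lrpap1, Rab11a and Ctns turned to 0.041, 0.24, 0.19, 0.078 and 0.15 in PT-S1 72 h, and Dab2 and Ocrl to -0.13 and -0.11 in CCD 72 h. The animal as a random effect gave 0.056 for Rab11a in PT-S1 24 h, and a pseudocount of 0.1 gave 0.28 for Amn in CCD 72 h. Leaving out single animals gave, in PT-S1 24 h, -0.093 to 0.13 for Rab11a and -0.51 to 0.030 for Ctns; in PT-S1 72 h, -0.14 to 0.14 for Amn, -0.057 to 0.14 for Clcn5 and -0.089 to 0.046 for Rab11a; in CCD 24 h, -0.033 to 0.094 for Ctns; and in CCD 72 h, -0.23 to 0.13 for Amn, -0.10 to 0.044 for Ctns, -0.091 to 0.15 for Dab2 and -0.14 to 0.17 for Ocrl. The cause was not tested.

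No gene of the 9 passed limma for UNx against sham under any alternative. The number passing in PT-S1 against CCD at 24 h was 1 (Dab2) without the libraries of low correlation, and 0 to 1 when single animals were left out. Over all genes of PT-S1 at 24 h the number passing was 0, rising to 100 when every library entered with a random animal effect.

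Same-numbered sham and UNx animals did not deviate together: of 15 pairs, 5 had a correlation over 0.1 and 4 matched their own number best (-0.366 to 0.328). With a replicate block, 0 of the 9 genes passed in each table, and 81 genes in all did in PT-S1 at 24 h. Depth is unknown, so the counting error of low values in CCD cannot be given.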
